A study of Anser cygnoides with 6 samples.

Results

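Heat shock proteins and their co-chaperones were described in the ovary of the swan goose, Anser cygnoides, at 2 stages. The genes were chosen by symbol: the small heat shock proteins (HSPB), the HSP70 and HSP110 genes (HSPA, HSPH1), HSP90, the chaperonins (HSPD1, TCP1 and the CCT genes), the J-domain proteins (DNAJA, DNAJB, DNAJC), the BAG genes and the heat shock factors (HSF). The rule found 72 of 14696 genes, and it used no measured value.

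Per the labels, 3 libraries came from ovaries at the reproduction stage (reproductive 1 to 3) and 3 from ovaries at the broodiness stage (broody 1 to 3), when laying stops. All geese reached an age of 40 weeks in a light-controlled room whose days had 11 h light and nights 13 h, and those of the broody group were also force-moulted. The labels name short light both for all birds and as a treatment of the broody group, so the stage, the moult and any difference in light cannot be told apart. The series text names the oviduct where every sample label names the ovary. Nothing in the labels says that the libraries came from separate birds, so a p-value here reflects the spread between libraries, which may be technical.

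Chaperones bind unfolded or partly folded proteins and help them to fold, to assemble or to reach the degradation machinery. HSP70 works in cycles of ATP hydrolysis: a J-domain protein brings the client and starts hydrolysis, and an exchange factor such as a BAG or HSP110 protein releases the nucleotide and the client. HSP90 finishes many signalling proteins, steroid receptors among them, while the ring-shaped chaperonin TRiC folds actin and tubulin. The heat shock factors are the transcription factors that switch many of these genes on under stress. The ovary joins growing oocytes, the granulosa and theca cells around them, and a stroma with vessels and smooth muscle, and each of these cell types has its own mix of chaperones.

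Values are the FPKM that the authors deposited. FPKM corrects fragment counts for transcript length and for the size of the library, so levels can be set against each other between genes. Differences are broody minus reproductive on the log2(FPKM + 1) scale, which understates the change of genes at low FPKM. A gene was called where limma's p was under 0.05 after Benjamini-Hochberg adjustment across the 11377 genes tested. Depth is unknown, and close paralogs can share reads.

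The libraries differed in more than these genes. The FPKM of 7 smooth muscle markers summed to 299, 406 and 935 in broody 1 to 3 and to 4329, 6967 and 3129 in reproductive 1 to 3, with all 7 lower in broody ovaries. The other 3 markers of that list were not analysed here. The 9 oocyte markers measured went the other way, with sums of 1430, 1355 and 1561 in broody and of 473, 170 and 743 in reproductive libraries, all 9 higher. Of the other markers, 2 of 3 granulosa genes tested were higher, and 2 of 3 theca, 3 of 4 endothelial and 4 of 4 macrophage genes were lower. Oocyte and smooth muscle markers were above 0 in every library. Of the markers of ciliated oviduct epithelium, only FOXJ1, a ciliary transcription factor, was tested. It was higher in broody libraries, with 20.2, 20.3 and 16.3 FPKM against 12.1, 3.27 and 10.5 in reproductive 1 to 3 (adjusted p = 0.0457). The call was lost with the median-ratio scaling described below (adjusted p = 0.0790) and without broody 3 (0.0777). DNAH5 and RSPH1 were under 1 in all 6 libraries and were not tested. In bulk tissue, fewer cells of a type and less RNA per cell cannot be told apart, and the part of cell composition in the differences below was not tested.

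Reproductive 2 was the lowest of the 6 libraries for 45 of the 68 chaperone genes tested (66.2%) and for 45.5% of all genes tested. Median-ratio scaling, which sets the typical gene equal between libraries, moved the median difference of all genes from 0.23 to 0.00, so a difference near 0.23 in the values as deposited was that of the typical gene.

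Of the 72 genes, 68 passed the filter of at least 1 FPKM in at least 3 libraries. The other 4 stayed under 0.4 FPKM in every library: HSPB2, DNAJB8, DNAJC5B and HSF4. In the broody ovary 25 of the 68 were higher and 4 lower, which is 36.8% and 5.88% of them, against 29.9% and 12.0% of all genes tested (41.9% in either direction). The groups did not overlap for 44 members, or 64.7%, against 59.5% of all genes. By these counts the chaperone genes were close to the transcriptome as a whole. With median-ratio scaling 10 were higher and 8 lower, or 14.7% and 11.8%, against 16.7% and 18.8% of all genes. Those higher under both were HSPA14, HSPA4, DNAJB9, DNAJC5, DNAJC6, DNAJC9, DNAJC12, DNAJC13, DNAJC21 and BAG4, and those lower under both were HSPB1, BAG2, DNAJB4 and DNAJB5. With broody 1 or broody 2 left out no member was called. Then 28 and 25 of the 68 had an unadjusted p under 0.05, as did 4571 and 4686 of all 11377 genes tested. Each of these fits called 1 gene in the whole table.

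The differences were unequal in size. HSPB1, BAG2 and DNAJB4 fell by more than 1 on the log2 scale, which is 3 of 68 or 4.41%, against 5.05% of all genes tested. DNAJC5, DNAJC6, DNAJC9 and DNAJC12 rose by more than 1, which is 5.88% against 9.45%. By these shares, large differences were no more frequent among the chaperone genes than in the transcriptome. The calls of HSPB1, BAG2, DNAJB4, HSPA4, HSPA14, DNAJB9, DNAJC5, DNAJC6, DNAJC9, DNAJC13, DNAJC15, DNAJC18 and DNAJC21 held with broody 3 or any 1 reproductive library left out. Median-ratio scaling turned the sign of the small, uncalled differences of HSPB8, HSPA13, HSP90AB1, CCT3, CCT8, DNAJB6, BAG1, BAG5 and HSF1, all of which then lay between -0.16 and -0.01.

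**Figure D1:**
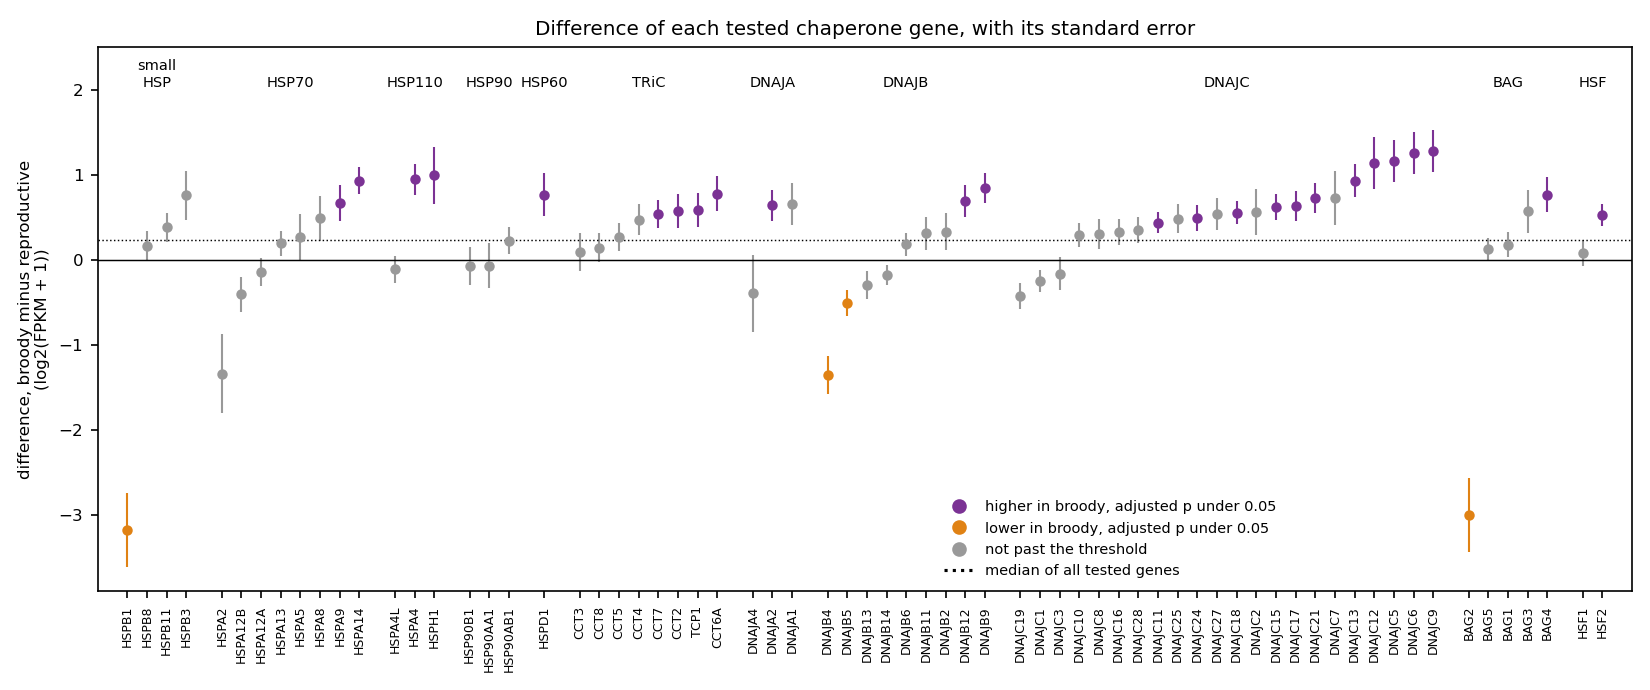
Difference between broody and reproductive libraries for the 68 tested chaperone genes, by family, on the log2(FPKM + 1) scale, with bars for the standard error. HSPB1 and BAG2 stand near -3, the members that rose lie between 0.43 and 1.28, and the dotted line marks the median of all genes, 0.23.

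Small heat shock proteins hold unfolding proteins in solution without ATP. HSPB1 (106041405) was at 51.8, 26.3 and 15.0 FPKM in reproductive 1 to 3 and at 1.31, 1.95 and 3.52 FPKM in broody 1 to 3. The groups lay far apart, with broody 3 the highest of its group and reproductive 3 the lowest of its own. The difference was -3.18 ± 0.44 (SE, adjusted p = 0.0125), and the reproductive mean, 31.0 ± 18.9 FPKM (SD, n = 3), was 13.7 times the broody mean of 2.26 ± 1.14.

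The smooth muscle sum had broody 3 highest in its group and reproductive 3 lowest in its own. Among all genes called lower, 77.8% had broody 3 as the highest broody library. MYH11, the smooth muscle myosin heavy chain, had 76.3, 108 and 296 FPKM in broody and 1166, 2733 and 1179 in reproductive libraries, so reproductive 1 and 3 were close and reproductive 1 was lowest. Per 1000 FPKM of MYH11, HSPB1 had 17.1, 18.1 and 11.9 FPKM in broody and 44.4, 9.61 and 12.7 in reproductive libraries. This ratio overlapped between the groups (exact permutation p = 0.9, n = 3 a group). The reproductive mean was 13.7 times the broody mean for HSPB1 and 10.6 times for MYH11. The overlap therefore follows from falls of like size and is no separate result about HSPB1. Whether HSPB1 and smooth muscle are linked was not tested.

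The other small heat shock proteins did not pass. HSPB3, a muscle form, had 2.03, 3.35 and 1.13 FPKM in broody and 1.03, 0.400 and 1.06 in reproductive libraries (difference 0.75 ± 0.29, adjusted p = 0.0682). Its groups did not overlap. HSPB8, which works with BAG3 in the removal of damaged proteins, had 3.76 ± 0.838 against 3.23 ± 0.395 FPKM, a difference of 0.16 with a 95% interval of -0.26 to 0.58. HSPB11, which carries the family's name but is a subunit of intraflagellar transport, had 22.1 ± 1.35 against 16.9 ± 3.50 FPKM (adjusted p = 0.107). Of the related crystallins, CRYAB had 0.777, 0.623 and 1.33 FPKM in broody and 0.276, 0.762 and 0.845 in reproductive libraries, under the filter, and CRYAA stayed under 0.1.

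HSP70 genes made 0.333, 0.334 and 0.341% of all FPKM in broody libraries and 0.437, 0.282 and 0.275% in reproductive libraries, without separating the groups (exact permutation p = 1). Within the family the make-up differed. HSPA8 (106039820), the constitutive cytosolic HSP70, had 726, 742 and 699 FPKM in broody 1 to 3 and 659, 354 and 588 in reproductive 1 to 3. Every broody library lay above every reproductive one, but reproductive 2 was far below the others and the difference of 0.48 ± 0.26 did not pass (adjusted p = 0.169, interval -0.13 to 1.10). With quantile normalization, which forces all libraries to 1 distribution, it was 1.08 and passed (adjusted p = 0.0246), while with median-ratio scaling it was 0.23 (0.489).

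HSPA2 (106037266), an HSP70 that mouse sperm formation needs, had 434, 461 and 135 FPKM in reproductive 1 to 3 and 110, 96.5 and 154 in broody 1 to 3. The groups overlapped, since reproductive 3 lay below broody 3. The difference of -1.34 ± 0.46 narrowly missed the threshold (adjusted p = 0.0505) and passed with median-ratio scaling (-1.60, adjusted p = 0.0478). It also passed with quantile normalization (0.0466) and without reproductive 3 (0.0101). It missed the threshold without broody 3 (0.0700), reproductive 1 (0.139) or reproductive 2 (0.123). HSPA2 took 31.1, 47.1 and 14.2% of the family's FPKM in reproductive libraries and 9.66, 8.48 and 13.4% in broody ones. This share does not depend on the scaling of a library, and its groups did not overlap (exact permutation p = 0.1, the smallest that 3 against 3 allows). HSPA2 had the lowest difference of the family, so the share is no separate result. In reproductive 2 there was more HSPA2 than HSPA8, at a ratio of 1.30, while the ratio was 0.130 to 0.220 in broody libraries and 0.659 and 0.230 in the other reproductive ones. Per 1000 FPKM of MYH11 the order turned, with 1446, 893 and 520 FPKM of HSPA2 in broody and 372, 169 and 115 in reproductive libraries, again without overlap (exact permutation p = 0.1). The reproductive mean was 10.6 times the broody mean for MYH11 and 2.86 times for HSPA2. The turn therefore follows from the larger fall of MYH11 and is no separate result about HSPA2.

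**Figure D2:**
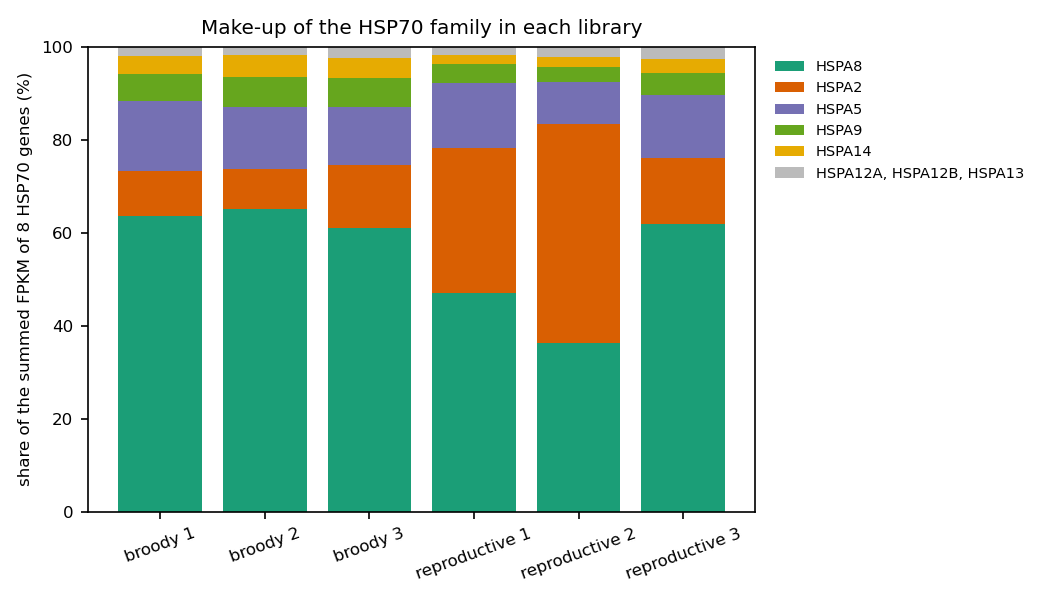
Share of each HSP70 gene in the summed FPKM of the 8 HSP70 genes, in percent, for each library. HSPA2 takes 31.1 and 47.1% in reproductive 1 and 2, 14.2% in reproductive 3 and 8.48 to 13.4% in the broody libraries.

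The HSP70 genes that rose were HSPA14 and HSPA9. HSPA14 (106046191), which pairs with the J protein DNAJC2 at the ribosome, had 45.4, 52.0 and 50.6 FPKM in broody and 26.5, 20.8 and 29.6 in reproductive libraries (0.93 ± 0.16, adjusted p = 0.0152). DNAJC2 itself had 33.2, 42.2 and 32.2 FPKM in broody and 29.8, 15.0 and 30.2 in reproductive libraries, a difference of 0.56 ± 0.27 that did not pass (adjusted p = 0.131). HSPA9 (106034318), the mitochondrial HSP70, went from 44.8 ± 13.1 to 69.8 ± 4.49 FPKM (0.67 ± 0.21, adjusted p = 0.0412). The HSPA9 call was lost with median-ratio scaling (adjusted p = 0.135), without broody 3 (0.0905), without reproductive 2 (0.0615) and without reproductive 3 (0.0697).

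The exchange factor GRPEL1, which serves HSPA9 in mitochondria, rose as well, from 56.1 ± 11.1 to 84.6 ± 6.70 FPKM, and its paralog GRPEL2 from 17.5 ± 1.82 to 25.2 ± 1.49 (adjusted p = 0.0292 and 0.0248). Both missed the threshold with median-ratio scaling (adjusted p = 0.0700 and 0.133), and GRPEL1 also without broody 3 (0.0515), reproductive 1 (0.0679) or reproductive 2 (0.0519). HSPA5, the HSP70 of the endoplasmic reticulum (ER), had 174, 152 and 145 FPKM in broody and 195, 88.2 and 128 in reproductive libraries (0.26 ± 0.28, interval -0.38 to 0.91). HSPA13, HSPA12A and HSPA12B, divergent members of the family, stood at 10.8 ± 0.931, 10.3 ± 1.73 and 1.63 ± 0.589 FPKM in broody and at 9.35 ± 0.916, 11.5 ± 1.29 and 2.46 ± 0.449 in reproductive libraries, and none passed.

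HSP110 proteins are relatives of HSP70 that act as its exchange factors. HSPA4 (106032744) had 131, 145 and 132 FPKM in broody and 77.5, 53.7 and 82.9 in reproductive libraries (0.94 ± 0.19, adjusted p = 0.0172). The groups were well apart, and the gain was 1.90-fold by the means. Set against HSPA8 in the same library, HSPA4 had a ratio of 0.181, 0.195 and 0.189 in broody and 0.117, 0.151 and 0.141 in reproductive libraries, which did not overlap either (exact permutation p = 0.1).

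HSPH1 (106041157) rose from 77.9, 30.9 and 70.4 to 113, 128 and 95.2 FPKM (0.99 ± 0.34, adjusted p = 0.0481), a call that was lost with median-ratio scaling (adjusted p = 0.0926), with a pseudocount of 0.1 (0.0512) and without broody 3 (0.0745). HSPA4L, the third gene of the kind, stood at 31.5 ± 2.91 and 34.3 ± 5.37 FPKM, with an interval of -0.48 to 0.25.

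HSP90 gave no call. HSP90AA1 (106046988), the cytosolic alpha form, had the highest mean of all members over the 6 libraries, although HSPA8 was higher in the broody group (722 against 683 FPKM). It was measured at 702, 787 and 559 FPKM in broody and at 946, 557 and 678 in reproductive libraries. The groups overlapped, with a difference of -0.07 ± 0.26 and an interval of -0.68 to 0.54. HSP90B1, the ER form, had 245, 287 and 223 FPKM against 352, 209 and 251 (interval -0.60 to 0.44), and HSP90AB1, the cytosolic beta form, only 8.46 ± 0.976 against 7.12 ± 0.971 FPKM. Of the HSP90AB1 FPKM, 58.0% in broody and 59.0% in reproductive libraries lay in a transcript model recorded as non-coding. Whether its low level comes from the annotation was not tested. In the values as deposited, a difference of 1 on the log2 scale lies outside the interval of each of these HSP90 genes in either direction. The sign of these small differences was not steady: with quantile normalization HSP90AA1 turned to 0.56 (adjusted p = 0.159) and HSP90B1 to 0.05, and without reproductive 1 they turned to 0.14 and 0.12. HSPA8 over HSP90AA1 was 1.04, 0.943 and 1.25 in broody and 0.697, 0.636 and 0.868 in reproductive libraries, so the balance of the most abundant cytosolic HSP70 and HSP90 did not overlap between the stages (exact permutation p = 0.1).

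The co-chaperones of HSP90 and HSP70 without a J domain were counted as a list of 26, of which 21 were tested. In broody ovaries 9 were higher and 1 lower, or 42.9% and 4.76% against 29.9% and 12.0% of all genes, with a median difference of 0.50 against 0.23. With median-ratio scaling 6 were higher and 1 lower, or 28.6% and 4.76% against 16.7% and 18.8%, with a median of 0.26 against 0.00. NUDC, a co-chaperone also known from nuclear movement, rose from 54.8 ± 7.38 to 105 ± 10.3 FPKM (0.93 ± 0.15, adjusted p = 0.0141). PTGES3, the p23 protein that holds HSP90 closed on its client, rose from 35.8 ± 6.08 to 64.0 ± 8.24 (0.83 ± 0.17, adjusted p = 0.0178). The member that fell, named after its values were seen, was FKBP5, an immunophilin of steroid receptor complexes that is itself induced by progesterone and glucocorticoids in mammals. It went from 44.6, 21.8 and 34.8 FPKM to 20.3, 12.4 and 18.9 (-0.90 ± 0.29, adjusted p = 0.0402). This call was lost without broody 3 (0.0696), reproductive 1 (0.105) or reproductive 3 (0.0838). FKBP4, the immunophilin in the same place of the complex, named for that role, rose from 102 ± 19.0 to 145 ± 8.52 FPKM (adjusted p = 0.0462), and missed the threshold with median-ratio scaling (0.170) and without broody 3 (0.0830), reproductive 1 (0.0626) or reproductive 2 (0.0652).

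The chaperonins were higher in broody libraries in part. HSPD1 (106040015), the mitochondrial chaperonin, had 139, 139 and 124 FPKM in broody and 99.6, 51.9 and 93.2 in reproductive libraries (0.77 ± 0.25, adjusted p = 0.0430, and 0.0778 without broody 3). Of the 8 TRiC genes, 4 rose and none fell, or 50% and 0% against 29.9% and 12.0% of all genes tested: CCT6A by 0.78, TCP1 by 0.58, CCT2 by 0.57 and CCT7 by 0.54, with adjusted p of 0.0248 to 0.0495. All 8 differences were above 0, as were 64.4% of those of all genes tested. The TRiC median was 0.50, against 0.23 for all genes. With median-ratio scaling HSPD1 and all 8 TRiC genes missed the threshold, and CCT3 and CCT8 turned to -0.16 and -0.12. TRiC genes called were 0 without broody 3, 2 without reproductive 1 and 1 without reproductive 2. Of all 11377 genes tested, 1924, 2305 and 2487 were higher in these fits, against 3400 with all 6 libraries.

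CCT6A (106041396) showed the largest separation, with 188, 197 and 190 FPKM in broody and 138, 82.2 and 123 in reproductive libraries. CCT3 (106049280) lay at the other end, with 39.1, 40.0 and 36.9 FPKM against 42.0, 24.9 and 45.1 (0.09 ± 0.22). The assembled ring holds each protein subunit in equal number, but the mRNA levels were unequal. The highest subunit had 5.65, 5.998 and 5.47 times the FPKM of the lowest in broody and 4.05, 4.49 and 3.68 times in reproductive libraries. These mRNA levels do not give the number of protein subunits, which was not measured. CCT6A took 18.0 to 19.3% of the summed TRiC FPKM in broody and 13.99 to 15.7% in reproductive libraries, and CCT3 3.73 to 3.75% against 4.24 to 5.66%. These within-family shares did not overlap between the groups and do not depend on the scaling (exact permutation p = 0.1 for each). CCT6A and CCT3 were picked as the ends of the family's differences, so their shares are no separate result. Shares of CCT5 (11.9 to 12.1% against 13.4 to 14.2%) and CCT8 (11.4 to 13.3% against 13.7 to 17.6%) did not overlap either. Those of TCP1, CCT2, CCT4 and CCT7 overlapped. CCT4, CCT5 and CCT8 had differences of 0.47, 0.27 and 0.14 that did not pass.

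**Figure D3:**
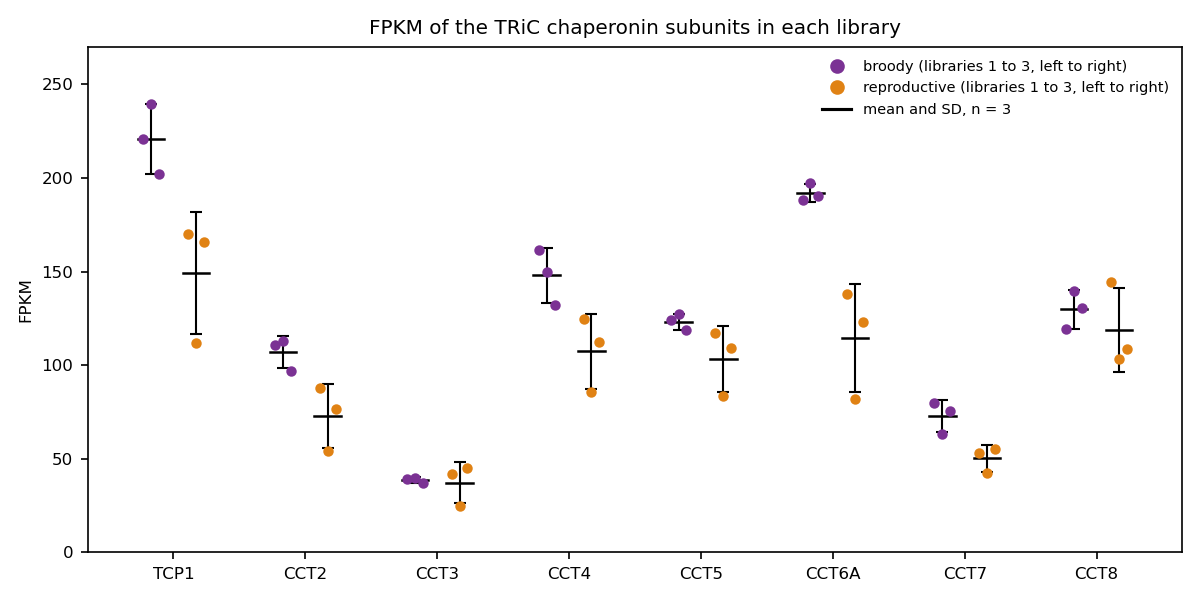
FPKM of the 8 TRiC subunits in each of the 6 libraries, with the mean and SD of each group (n = 3). CCT6A separates the groups most clearly, at 188 to 197 in the broody group and 82.2 to 138 in the reproductive one, and reproductive 2 is the lowest library for each subunit.

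Prefoldin and the phosducin-like proteins pass clients to TRiC or tune it. Of 9 tested, 1 was higher and 1 lower, or 11.1% each against 29.9% and 12.0% of all genes, with a median of 0.12 against 0.23. PDCL2, a germ cell form in mouse, had 4.82, 1.30 and 2.47 FPKM in broody and 0.420, 0.0505 and 0.459 in reproductive libraries (1.47 ± 0.33, adjusted p = 0.0186). PFDN5, a prefoldin subunit, fell from 48.5 ± 0.836 to 33.6 ± 3.77 FPKM (adjusted p = 0.0223).

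J-domain proteins direct HSP70 to its clients and sites of work, and they were the most numerous group, with 34 tested. Type A members have the full bacterial layout. DNAJA2 (106039618) rose from 37.6 ± 8.71 to 58.0 ± 2.58 FPKM (0.64 ± 0.19, adjusted p = 0.0313, 0.0953 with median-ratio scaling and 0.0653 without broody 3). DNAJA1 had 84.1, 84.9 and 98.3 FPKM against 73.4, 37.3 and 64.2 and did not pass (0.65 ± 0.25, adjusted p = 0.0660), although its groups did not overlap. DNAJA4 had 41.5 FPKM in reproductive 1, where reproductive 2 and 3 had 13.8 and 10.2 and the broody libraries 16.2, 12.3 and 12.5.

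Type B members were divided. DNAJB4 (106034078), a cytosolic HSP70 partner, had 76.5, 66.2 and 49.6 FPKM in reproductive and 21.0, 20.5 and 32.1 in broody libraries (-1.36 ± 0.23, adjusted p = 0.0148). The groups were apart by a wide margin, with broody 3 highest in its group and reproductive 3 lowest in its own, as in the smooth muscle sums. The match was partial, since reproductive 1 was highest for DNAJB4 and reproductive 2 for the sums. Broody 3 was the highest broody library for 77.8% of all genes called lower, so that part of the order is common. The DNAJB4 share of the DNAJB family was 7.71 to 12.2% in the broody group and 18.7 to 28.0% in the reproductive one (exact permutation p = 0.1). DNAJB4 had the lowest difference of the family, so this share is no separate result. DNAJB5, its close relative, fell from 11.7, 13.96 and 10.6 to 8.41, 8.28 and 7.67 FPKM (-0.51 ± 0.15, adjusted p = 0.0319, and 0.0865 without broody 3, 0.0599 without reproductive 1 and 0.0629 without reproductive 2).

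Those that rose, DNAJB9 and DNAJB12, sit at the ER, as does DNAJB14, which did not rise. DNAJB9, the ER J protein that in mammals restrains the stress sensor IRE1, went from 28.7, 20.9 and 32.0 to 48.9, 53.3 and 44.6 FPKM (0.84 ± 0.18, adjusted p = 0.0178), and DNAJB12, an ER membrane form, from 7.73 ± 1.51 to 13.1 ± 2.26 (adjusted p = 0.0279, 0.0808 with median-ratio scaling, 0.0612 without broody 3 and 0.0526 without reproductive 2). DNAJB6, known for keeping polyglutamine proteins soluble, had the highest mean of the type B genes over the 6 libraries and differed by 0.18 ± 0.13 (72.4 ± 6.81 against 63.8 ± 4.51 FPKM). In the reproductive group DNAJB4 stood beside it, at 64.1 ± 13.6 FPKM. DNAJB14, the ER membrane relative of DNAJB12, had 21.5 to 21.9 FPKM against 23.6 to 26.3, a difference of -0.18 that did not pass (adjusted p = 0.240) and passed with median-ratio scaling (-0.43, adjusted p = 0.0365). DNAJB2, DNAJB11 and DNAJB13 did not pass either, with differences of 0.33, 0.31 and -0.30.

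The type C members share little beyond the J domain, and each tends to serve 1 place in the cell. Of 22 tested, 11 rose and none fell, or 50% and 0% against 29.9% and 12.0% of all genes, and the median difference was 0.55 against 0.23. With median-ratio scaling 6 were higher and 2 lower, or 27.3% and 9.09% against 16.7% and 18.8%, and the median was 0.30 against 0.00. Without reproductive 1, 7 of the 22 were higher and 1 lower, against 2305 and 1225 of all 11377 genes tested. The summed FPKM of the family was 0.264, 0.295 and 0.253% of the library in broody and 0.185, 0.145 and 0.205% in reproductive libraries, without overlap (exact permutation p = 0.1).

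The largest increase was that of DNAJC9 (106031139), a histone co-chaperone that also brings HSP70 to histones H3 and H4. It had 138, 172 and 142 FPKM in broody and 66.9, 41.8 and 82.6 in reproductive libraries (1.28 ± 0.25, adjusted p = 0.0171), a 2.37-fold gain by the means. DNAJC6 (106043607), auxilin, which strips clathrin from endocytic vesicles, had 58.1, 63.7 and 48.5 FPKM against 22.5, 16.3 and 33.0 (1.26 ± 0.25, adjusted p = 0.0172). Both genes had the order reproductive 3, reproductive 1, reproductive 2 from high to low, which is the order of the oocyte marker sums. The order is common: DNAJC5 and DNAJC12 below had it too, as did 65.9% of all genes that rose.

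DNAJC5 (106040812), the cysteine string protein of secretory vesicles, rose from 37.7, 22.6 and 44.2 to 79.3, 84.7 and 66.3 FPKM (1.16 ± 0.25, adjusted p = 0.0178). DNAJC12 (106031122), a partner of the aromatic amino acid hydroxylases, had 20.7, 15.9 and 13.7 FPKM in broody and 6.54, 4.44 and 11.4 in reproductive libraries (1.14 ± 0.31, adjusted p = 0.0254, and 0.0635 without reproductive 1). These 4 genes also passed with median-ratio scaling, by 0.91 to 1.02. Of the 25 members that rose, 13 (52.0%) had the reproductive libraries in the order of the oocyte sums, against 65.9% of all genes that rose.

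**Figure D4:**
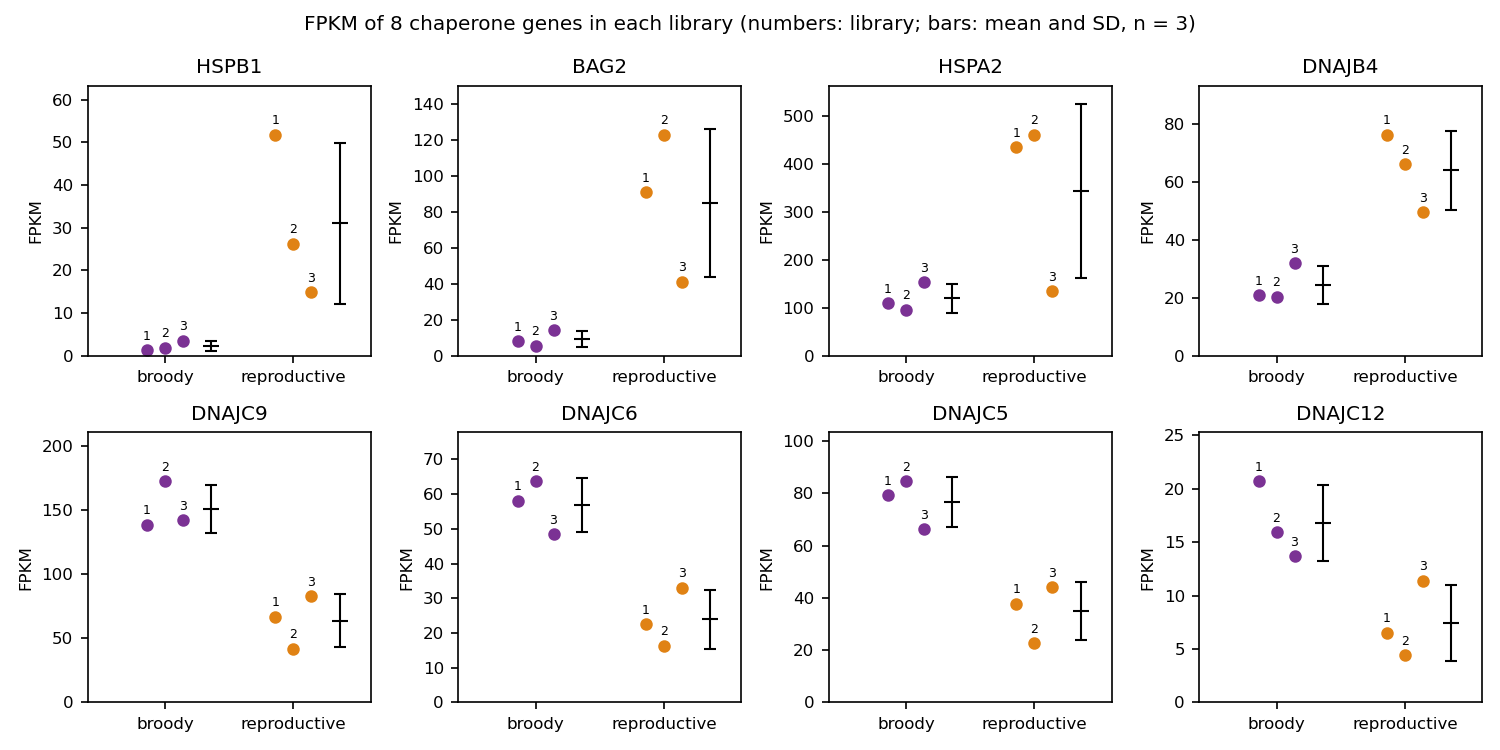
FPKM of 8 chaperone genes in each library, with points numbered by library and bars for the mean and SD of each group (n = 3). The upper row shows HSPB1, BAG2, HSPA2 and DNAJB4, which are lower in broody libraries by the mean, and HSPA2 overlaps between the groups; the lower row shows DNAJC9, DNAJC6, DNAJC5 and DNAJC12, which do not overlap.

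Other type C members that rose are given by their place of work. DNAJC13, an endosome protein, went from 57.0, 42.4 and 69.4 to 108, 114 and 96.3 FPKM (0.93 ± 0.19, adjusted p = 0.0177). In mitochondria, DNAJC15 of the import motor rose by 0.62 and DNAJC11 by 0.43. DNAJC19, the other J protein of the import motor, went against them, with 38.2, 48.2 and 45.0 FPKM in broody and 51.2, 64.7 and 61.6 in reproductive libraries. Its difference of -0.43 ± 0.15 missed the threshold (adjusted p = 0.0558) and passed with median-ratio scaling (-0.68, adjusted p = 0.0225). Its groups did not overlap.

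In RNA and ribosome work, DNAJC21, which helps the large ribosomal subunit to mature, rose by 0.72 (8.18 ± 1.67 to 13.98 ± 1.23 FPKM), DNAJC17, of the spliceosome, by 0.63, and DNAJC24, which takes part in the diphthamide modification of an elongation factor, by 0.49. DNAJC18 of the ER membrane rose by 0.55. Adjusted p of DNAJC11, DNAJC15, DNAJC17, DNAJC18, DNAJC21 and DNAJC24 was 0.0198 to 0.0421. With median-ratio scaling DNAJC21 stayed past the threshold (0.0470) and the other 5 missed it (0.0654 to 0.258). Without broody 3, DNAJC11, DNAJC17 and DNAJC24 missed it (0.0515 to 0.0679), as they did without reproductive 1 (0.0625 to 0.0871). DNAJC17 and DNAJC24 missed it without reproductive 2 (0.0559 and 0.0572), and DNAJC24 without reproductive 3 (0.0747). The ER lumen members DNAJC10 and DNAJC3 did not pass, with 33.8 ± 3.64 against 27.4 ± 3.02 and 13.6 ± 2.82 against 15.3 ± 2.59 FPKM, nor did DNAJC1, at 15.5 ± 1.15 against 18.5 ± 1.13, which was lower with median-ratio scaling (-0.49, adjusted p = 0.0231).

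Of the 72 genes, 50 had 1 deposited transcript and 22 had several, which gave 112 transcripts in all. Among the genes with several, the estimate moved between transcripts from library to library. For DNAJC5 the 5 transcripts included one with 65.5, 38.7 and 36.8 FPKM in broody and 33.1, 0 and 0 in reproductive libraries, and one at 0.00196, 0.00180 and 0.00452 against 2.74, 8.72 and 12.2. In a fit over all transcripts the second was lower in broody libraries (-2.96 ± 0.48, adjusted p = 0.0377), against the direction of the gene's sum. The main DNAJC15 transcript stood at 27.9 and 26.1 FPKM in broody 1 and 2 and at 0.0555 in broody 3, where the other transcript had 20.6. Tested alone, that main transcript had a difference of -0.83, and 1 DNAJC13 transcript, with 1.11% of the gene's FPKM in broody and 16.1% in reproductive libraries, had -1.14. Both went against the gene's sum and neither passed (adjusted p = 0.664 and 0.486). A value of 0 here can be a failed split of reads between transcripts, so sums per gene were used. DNAJC6 and DNAJB4, whose FPKM lay in 1 of 2 transcripts, were called in both fits (adjusted p = 0.0461 and 0.0403 for the transcript). The main transcripts of other called genes, CCT2, DNAJB5, DNAJB9, DNAJC13, DNAJC17 and DNAJC24, missed the threshold when tested alone (adjusted p = 0.0721 to 0.252).

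The BAG proteins release clients from HSP70 through their BAG domain. BAG2 (106030413), which also blocks the ubiquitin ligase STUB1, had 91.1, 123 and 41.2 FPKM in reproductive and 8.20, 5.64 and 14.3 in broody libraries. The groups were far apart, with reproductive 3 and broody 3 nearest to each other. The difference was -3.00 ± 0.44 (adjusted p = 0.0126), and the reproductive mean was 9.08 times the broody mean. BAG2 was 41.6 to 72.9% of the summed BAG FPKM in reproductive and 7.06 to 17.3% in broody libraries (exact permutation p = 0.1). BAG2 had the lowest difference of its family, so this share is no separate result. Per 1000 FPKM of MYH11, BAG2 had 108, 52.1 and 48.3 in broody and 78.2, 45.0 and 35.0 in reproductive libraries, which overlapped (exact permutation p = 0.5). The reproductive mean of MYH11 was 10.6 times its broody mean, so this overlap also follows from falls of like size. A link of BAG2 to smooth muscle was not tested.

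STUB1, the ligase that BAG2 blocks, named for that role, moved the other way, from 11.1, 8.88 and 12.9 to 20.8, 18.5 and 17.4 FPKM (0.75 ± 0.17, adjusted p = 0.0184). BAG4, known as a silencer of death receptors, rose from 7.40, 6.78 and 11.3 to 16.8, 14.3 and 13.4 FPKM (0.76 ± 0.20, adjusted p = 0.0254, 0.0651 without reproductive 1 and 0.0519 without reproductive 2). BAG3, which sends damaged proteins to autophagy and is a classic heat shock target, had 28.9, 29.4 and 27.0 FPKM against 26.3, 12.3 and 20.5 (0.57 ± 0.25, adjusted p = 0.101). BAG1 and BAG5 differed by 0.18 and 0.12, and the upper ends of their intervals were 0.51 and 0.44.

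Among the transcription factors, HSF2 (106032405), the factor tied to development and germ cells in mouse, had 36.6, 33.0 and 34.9 FPKM in broody and 23.4, 22.0 and 26.3 in reproductive libraries. The groups did not overlap, and the difference was 0.53 ± 0.13 (adjusted p = 0.0206). The call was lost with median-ratio scaling (0.28, adjusted p = 0.0675), without broody 3 and with the replicate block (0.0532 in both). HSF1, the main stress-activated factor in mammals, had 6.17, 5.71 and 5.10 FPKM against 4.79, 5.08 and 6.09. These groups overlapped, with a difference of 0.08 ± 0.15 and an interval of -0.28 to 0.44. HSF3, which the rule also covered, was not found under that name. HSF1 is controlled mainly at the protein, which these data do not measure. HSF4, a lens factor in mammals, had 0.191, 0.155 and 0.182 FPKM in broody and 0.255, 0.361 and 0.369 in reproductive libraries and was not tested.

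The other lists give the wider folding machinery. Of 16 genes of ER folding and the unfolded protein response, 2 rose and none fell, or 12.5% and 0% against 29.9% and 12.0% of all genes, and the median difference was 0.00 against 0.23. With median-ratio scaling 0 were higher and 5 lower, or 0% and 31.3% against 16.7% and 18.8%, and the median was -0.26 against 0.00. Those that rose were the stress sensors EIF2AK3 (19.7 ± 1.35 to 28.8 ± 2.95 FPKM, adjusted p = 0.0232) and ATF6 (13.9 ± 2.49 to 20.5 ± 1.81, adjusted p = 0.0338), and both missed the threshold with that scaling (0.111 and 0.119) and without broody 3 (0.0618 and 0.0671). ATF6 also missed it without reproductive 1 (0.0797) or reproductive 2 (0.0576). SERPINH1, the collagen chaperone of the ER, was on another list and fell from 144, 114 and 120 to 68.8, 82.7 and 84.1 FPKM (-0.67 ± 0.16, adjusted p = 0.0191). Of 6 mitochondrial protease and import motor genes, 2 rose, AFG3L2 and HTRA2, by 0.43 and 0.48, which is 33.3% against 29.9% of all genes, and 0 were called with median-ratio scaling. Without broody 3 neither passed (0.0938 and 0.0601). Without reproductive 2 neither passed (0.0924 and 0.102), and AFG3L2 missed it without reproductive 1 (0.0749) and HTRA2 without reproductive 3 (0.0873).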

How the data were processed

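RNA of 3 broody and 3 reproductive ovary libraries was compared. The authors deposited FPKM for 33089 transcripts, and the submitters' processing notes name HISAT2 and StringTie, without versions. Build, annotation release and strandedness: not given in the sources used here. The FPKM of a library summed to 319866 to 346625, low values gave no whole reads, and depth is therefore unknown.

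Transcripts were summed per gene identifier (14696 genes). Names came from the deposited table (52 members) or from RefSeq names of the assembly Taihu_goose_T2T_genome (20 members). The 11377 genes with FPKM of at least 1 in at least 3 libraries were fitted together with limma 3.58.1 in R 4.3.3, as log2(FPKM + 1), with a mean-variance trend and no covariate. Benjamini-Hochberg adjustment ran across all of them, for two-sided p, with a threshold of 0.05. Shares and ratios were compared by two-sided exact permutation over libraries, whose smallest p is 0.1 with 3 against 3. The script was tested on simulated data. The largest share of transcripts with the same value above 0 in any pair of libraries was 0.00604%, so no library was a copy of another. Each library counted as 1 sample, although this check cannot show that the libraries came from separate birds.

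Members, families, lists and the rule for named genes were chosen with earlier results of these data known. The rule named members past the threshold with a difference of at least 1 on the log2 scale, the most abundant and the lowest-p member of each family, every HSF, all tested members of families of up to 8, and the 2 lowest-p genes of each other list. Members named beyond it were chosen after their values were seen. Alternatives covered pseudocount, filter, scaling, replicate block, single transcripts and each library left out. Protein and promoter sequences were not used here.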

Additional observations from a re-analysis of the deposited data

How the results depend on the processing

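Of the 29 calls, 14 were kept and 4 members were newly called with median-ratio scaling, 13 and 4 with upper-quartile scaling, 15 and 5 with quantile normalization, 13 and 0 with the replicate block, 26 and 0 with a pseudocount of 0.1, 23 and 0 with no filter (where 1 of the 4 genes under the filter was also called lower) and 29 and 1 with a filter of FPKM at least 5. No called member changed sign in any of these or with a library left out. The groups of all 29 were apart, so leaving out a library could not turn them. Members higher and lower numbered 10 and 8 with median-ratio, 9 and 8 with upper-quartile and 12 and 8 with quantile scaling, against 25 and 4 as deposited, and 10 were higher with the replicate block. All genes higher and lower numbered 1897 and 2136, 1776 and 2189, and 2198 and 1937 with these scalings, and 2225 were higher with the block. TRiC genes higher were 2 with the pseudocount of 0.1, 2 with no filter, 0 with median-ratio or upper-quartile scaling, 1 with quantile normalization and 0 with the block. DNAJC genes higher and lower were 6 and 2 with each scaling, and 7 were higher with the block.

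With 1 library left out, 0 to 27 members were higher and 0 to 5 lower. Members higher were 0 without broody 1 or 2 and 13 without broody 3. All genes higher ranged from 0 to 3765 (1924 without broody 3) and lower from 1 to 1225. TRiC genes higher ranged from 0 to 3. DNAJC genes higher ranged from 0 to 14 and lower from 0 to 1. Among called members, single transcripts turned against the gene's sum for DNAJC5 (-1.26 and -2.96), DNAJC13 (-1.14) and DNAJC15 (-0.83). Deviations of same-numbered libraries from their group means correlated at 0.110, -0.158 and -0.203. Deviations from a mean of 3 libraries constrain each other, so these values cannot show whether the numbers pair the libraries. With 3 libraries a group and no read counts, small differences at low FPKM were not detectable here. The cause of these shifts was not tested.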
